A study of Mus musculus and other sequences with 2 samples.

Results

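The miRNAs described here are 9 that serve as reference sequences in many miRNA studies, miR-103, miR-107, miR-186, miR-191, miR-320, miR-328, miR-423, miR-425 and miR-484. They were taken by name, as every mouse assay with 1 of these numbers and without the mark # of a minor arm, which gave 11 of the 750 miRNA assays on the array. Of these 11, 9 were on card A and 2 on card B, since miR-423 and miR-425 each had an assay on both cards. The values came from 2 microdroplets, 1 for each medium. Conditioned media had held 25 CD1 mouse embryos, derived from superovulated females of 3 weeks of age in the labels, and of up to 4 weeks in the methods, mated with CD1 males, from 99 to 116 h post-hCG. The embryos were selected as compacted or cavitating morulae by the study's methods and are called blastocysts in the sample labels. Blank media was an equivalent microdroplet kept for the same 17 h without embryos. Both were 8 μL droplets of KSOM without BSA and with 0.1% polyvinylacetate as the labels name it, where the methods of other cultures in the study name polyvinyl alcohol. They were kept at 5% O2, 5% CO2 and 37°C, and 6 μL of each was lysed once the embryos had been removed. Media pooled from 25 embryos gives no value for a single embryo, and more embryos releasing a sequence cannot be told apart from more release per embryo. With 1 sample per medium no test between media was possible.

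A reference miRNA is one whose level is taken to vary little between samples, so that the values of other sequences can be expressed relative to it. Many of these sequences lie within introns of widely transcribed genes and are present in most cell types. In RT-qPCR such a reference corrects for the amount of input and for losses during reverse transcription, and miR-191 is an established choice in pre-implantation embryos. The small nuclear RNA U6, transcribed by RNA polymerase III, is among the small RNA controls that the array itself carries, and was compared here.

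The mature sequences are shown because the assays of miR-103 and miR-107, which gave different readings, have targets that are almost identical, and because miR-191 and miR-425 come from 1 locus. Mature sequences were taken from RefSeq (GRCm38.p6) for 8 of the 11 assays, with the major arm taken where the name of the assay gives none. Not matched were miR-320, miR-328 and the card B assay named miR-425. Capitals mark the seed, bases 2 to 8, which pairs with target mRNA.
miR-103-3p: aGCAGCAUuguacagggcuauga
miR-107-3p: aGCAGCAUuguacagggcuauca
miR-186-5p: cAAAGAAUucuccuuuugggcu
miR-191-5p: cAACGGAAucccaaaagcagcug
miR-425-5p: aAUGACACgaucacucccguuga
miR-423-5p: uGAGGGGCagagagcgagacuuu
miR-423-3p: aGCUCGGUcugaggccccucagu
miR-484: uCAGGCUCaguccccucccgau

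The 8 sequences carried 7 different seeds, and only miR-103-3p and miR-107-3p shared one. These 2, each of 23 bases, differed by 1 substitution, G22C, counted from the 5′ end with the base of miR-103-3p first. Of the other seeds, that of miR-425-5p is shared with miR-489-3p, whose mouse and rat assays were undetermined in both media. The content of G and C ran from 40.9% in miR-186-5p to 65.2% in miR-423-3p.

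In the RefSeq annotation of GRCm38.p6, 8 of the 10 genes that encode these miRNAs lie within the span of a protein-coding gene. Mir103-1, Mir103-2 and Mir107 lie in Pank3, Pank2 and Pank1, which encode pantothenate kinases, the enzymes that start coenzyme A synthesis. Mir186 lies in Zranb2, which encodes a splicing factor, Mir328 in Elmo3 and Mir423 in Nsrp1. Mir191 and Mir425 both lie in Dalrd3 on chromosome 9, with 384 bases between the hairpins. There, miR-191-5p is at chr9:108568325-108568347 and miR-425-5p at chr9:108568789-108568811, both on the + strand. Mir320 and Mir484, whose precursors are known to be made without the Drosha complex, were the genes outside any protein-coding span. Exon and intron positions were not examined here.

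Each well was read as a Ct, the number of cycles its fluorescence needed to reach a set threshold. Ct is an inverted log2 scale, where a lower value stands for more template. A Ct below 35 was taken as detection, and a well with no Ct in 40 cycles is undetermined. The study also required a minimum change in reporter fluorescence, which was not applied here. With that limit, and from a smaller number screened, the study counted fewer sequences as detected in each medium than are counted here. Of the 11 assays, 9 were detected in conditioned media and 7 in blank media. Over all 750 miRNA assays, 37.3% were detected in conditioned media and 29.1% in blank media. Detection in both media was found for 7 of the 11, beside 23.5% of all assays. In conditioned media only, 2 of the 11 were detected, beside 13.9% of all, and in blank media only there were 0 of 11, beside 5.6% of all. The detected assays ranged in Ct from 18.7 to 34.5 in conditioned media, with a median of 25.2, and from 9.73 to 32.6 in blank media, with a median of 21.1. For all detected miRNA assays the median was 25.5 with embryos and 22.8 without.

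**Figure D1:**
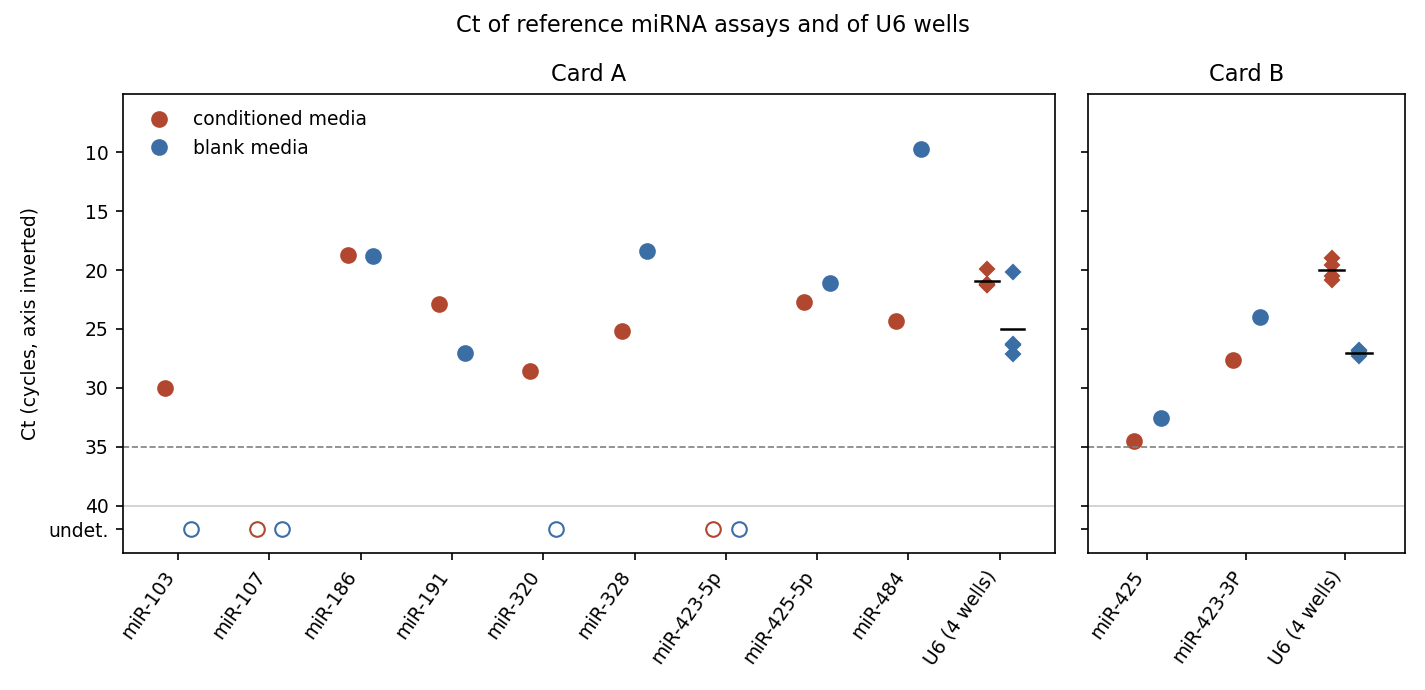
Ct of each of the 11 assays (circles, 1 well each) and of the U6 wells (diamonds, 4 per card and medium, with a bar at their mean) in conditioned and blank media, by card. The axis is inverted so that more template is higher, open circles are undetermined wells, the dashed line is the detection limit of 35 and the grey line is the last cycle, 40. In blank media miR-103 and miR-320 were undetermined, and miR-484 had the earliest Ct of the 11, at 9.73.

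U6 was the measure of error between wells, since each miRNA assay had 1 well per medium. On card A, the U6 wells of conditioned media read 19.9, 21.1, 21.3 and 21.3, with a mean of 20.9 ± 0.68 (SD, 4 wells). Those of blank media read 20.2, 26.3, 26.3 and 27.1, with a mean of 25.0 ± 3.22 (SD, 4 wells). The SD in blank media rested on the well at 20.2, and without it the other 3 wells had a mean of 26.6 ± 0.49. On card B, the wells lay between 19.0 and 20.8 in conditioned media and between 26.8 and 27.3 in blank media, with means of 19.96 ± 0.83 and 27.04 ± 0.23. U6 was therefore earlier in conditioned media on both cards. The mean differed by -4.08 cycles for card A and by -7.07 for card B, or by -5.34 and -6.65 without the well farthest from the median in each set. The SDs of both media combined, as the root of their summed squares, came to 3.29 cycles on card A, or 0.50 without the farthest wells, and to 0.86 on card B. These SDs describe wells loaded with the same product, and they leave out the error of separate lysis, reverse transcription and pre-amplification for each medium. Assays of 1 name could differ by more than these SDs. The assay named miR-223 on card A was 1.90 cycles later in conditioned media, and that on card B differed by -4.35 cycles.

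The embryonic markers, miR-291a-3p, miR-292-3p, miR-293, miR-294 and miR-295, are members of the family that dominates mouse embryonic stem cells. Their 6 mouse assays were all detected in conditioned media, with a Ct from 19.6 to 26.6, and none was detected in blank media. The study took these sequences into its panel from the results of this same array, and lists them as exclusive to conditioned media. Their reading was therefore known beforehand and is no independent check. The markers of other tissues gave a mixed reading. Of the blood cell markers miR-451, miR-144, miR-486 and miR-223, the first 2 were undetermined in both media, while 3 assays of the other 2 were detected in both. The liver marker miR-122 and the muscle marker miR-1 were undetermined in both media. Muscle miR-133a was detected in conditioned media only, at 31.6, and miR-206 in both, at 22.2 in conditioned and 20.6 in blank media. The part of material from outside the embryos in the values below was not tested.

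mmu-miR-191 is the sequence to which the individual assays of the study were normalized, by its level within the embryos. On the array it was read at 22.9 in conditioned media and at 27.1 in the blank. A signal was thus present in both media, and the conditioned sample was 4.21 cycles earlier. If each cycle doubled the product exactly, this would be 18.5 times as much template. The authors report that their individual miR-191 assay amplified at trace level from blank media and from water. How much of the blank reading on the array was such background was not tested. The difference was larger than the combined SD of the card A U6 wells, with or without the farthest wells. It was smaller than the gap between the differences of the 2 assays named miR-223, given above. Relative to the U6 mean of its card, miR-191 lay 1.97 cycles later than U6 in conditioned media and 2.10 later in blank media, so that its difference relative to U6 was -0.13 cycles. Without the farthest U6 wells, that difference was 1.13 cycles. Ranked by Ct among the assays detected on card A, where rank 1 is the earliest, miR-191 was at rank 43 of 149 in conditioned media and at rank 69 in blank media. Assays differ in efficiency, and such ranks do not order amounts.

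The 3 mouse assays of card A whose pair of Ct values lay nearest to that of miR-191, out of 99 with a Ct in both media, were miR-218, miR-200a and miR-92. Conditioned media read 23.3, 23.2 and 22.1 for these, and blank media 27.9, 26.2 and 27.9. The likeness rests on 2 samples only, with distances of 0.92, 0.92 and 1.07 cycles.

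The assay of miR-425-5p, from the same host gene as miR-191, read 22.7 in conditioned media against 21.1 in blank media. It went the other way from its neighbour, with a Ct 1.64 cycles later in conditioned media. This was smaller than the combined SD of the card A U6 wells, 3.29, and larger than the 0.50 found without the farthest wells. In conditioned media, miR-191 and miR-425-5p lay 0.13 cycles apart, and in blank media miR-191 was 5.98 cycles later. The separate assay named mmu-miR-425, on card B, read 34.5 in conditioned media, close to the limit of 35, and 32.6 in the blank. Its difference of 1.97 cycles was larger than the 0.86 cycles of the U6 wells of that card. Those wells read between 19.0 and 27.3, so their SD does not give the error of wells near the limit. The name of this assay does not say which arm it reads.

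mmu-miR-186, encoded within the splicing factor gene Zranb2, was nearly level between the samples, at 18.7 in conditioned media and 18.8 in the blank. The difference of -0.10 cycles was smaller than the SD of the U6 wells in either medium and on either card, except for the 0.09 of the conditioned card A wells without the farthest, and so was not distinguishable from error between wells. Among the other 175 assays detected in both media, 4% had a smaller absolute difference, and 27.8% of all 176 lay within 1 cycle. Because U6 was earlier in conditioned media, the same values gave a difference of 3.98 cycles relative to the U6 mean.

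mmu-miR-484 was read at 24.4 in conditioned media and at 9.73 in the blank. The blank sample, which had held no embryos, therefore read 14.6 cycles earlier, the largest difference among these assays, and miR-484 was at rank 11 among the card A assays detected in blank media. Among the other 175 assays detected in both media, 96% had a smaller absolute difference. mmu-miR-328, a sequence also known to act as a decoy for an RNA-binding protein, read 25.2 in conditioned media and 18.4 in the blank, a difference of 6.84 cycles in the same direction. These 2 were the ones later in conditioned media by more than 5 cycles, out of 7 detected in both media, beside 11.4% of all assays detected in both. None of the 7 was earlier by more than 5 cycles in conditioned media, beside 10.8% of all. In blank media 3 of the 11 assays, miR-484, miR-328 and miR-186, had a Ct under 20, as did 11.2% of all 750 assays. Among the assays detected there, these were 3 of 7, beside 84 of 218. In conditioned media 1 of the 11, miR-186, had one, beside 11.6% of all. Among the assays detected in conditioned media, this was 1 of 9, beside 87 of 280. Whether the early readings in blank media came from template was not tested. With its fluorescence limit the study counted fewer sequences as later by more than 5 cycles in conditioned media than Ct alone gave here. Whether miR-484 and miR-328 passed that limit was not examined.

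The assays of the miR-423 hairpin also differed. mmu-miR-423-3P, on card B, read 27.7 with embryos and 24.025 without. The difference of 3.63 cycles was larger than the combined SD of the U6 wells of that card. The other arm, miR-423-5p on card A, which has been studied as a circulating marker of heart failure, was undetermined in both media. The arms were measured on different cards, from separate reverse transcription reactions.

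**Figure D2:**
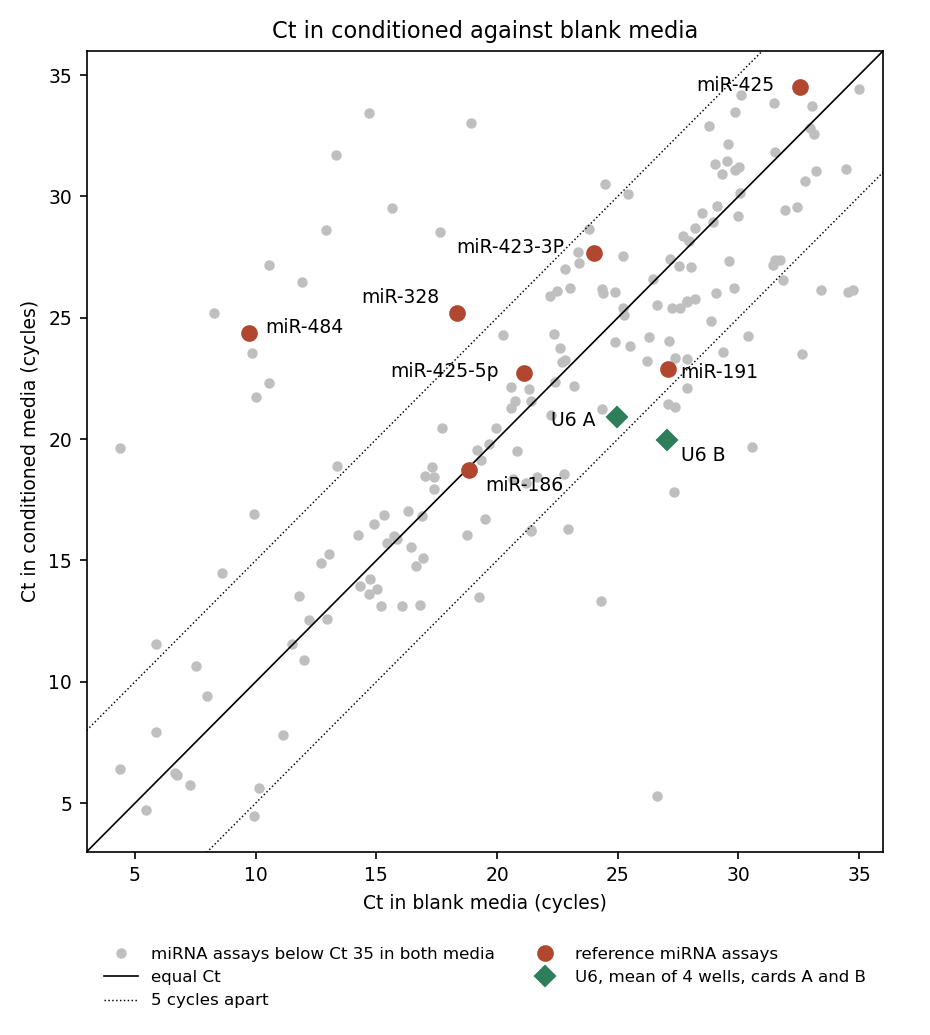
Ct in conditioned media against Ct in blank media for the 176 miRNA assays with a Ct below 35 in both (grey), with the 7 reference miRNA assays in red and the mean of the U6 wells of each card in green. The solid line marks equal Ct and the dotted lines mark 5 cycles either way. miR-186 lies on the line of equal Ct, miR-484 and miR-328 lie above the upper dotted line, and miR-191 is the red point below the line of equal Ct beside U6.

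mmu-miR-320 was read in conditioned media alone, at 28.6, with the blank well undetermined. It lay 7.67 cycles later than the U6 mean of its card, at rank 98 of the 149 assays detected there. mmu-miR-103 likewise crossed the threshold only with embryos, at 30.02, which was 9.12 cycles later than U6 and rank 116 of 149. Among the 11 assays these were the 2 read in conditioned media alone, and neither has a difference between media, since no Ct was given for the blank sample. The assay of mmu-miR-107, whose mature sequence differs from that of miR-103 by the single substitution given above, was undetermined in both media. miR-103 and miR-107 are known as regulators of Dicer, the enzyme that cuts miRNA precursors. Bases 1 to 7 of miR-103-3p are the seed of miR-16-5p, and the miR-16 assay also gave a Ct in conditioned media only, of 27.3.

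The minor arms of 2 of these hairpins had assays on card B, and no assay named for rat carried any of the 9 numbers. For miR-186#, conditioned media read 15.7 and blank media 15.4. For miR-191# they read 16.9 and 15.3, later in conditioned media by 1.56 cycles where the major arm was 4.21 cycles earlier. Both minor arms were thus read earlier than the major arms, in both media. The comparison is between assays and cards. Assays of the same name on this array, in 6 cases where both had a Ct between 20 and 35 in 1 medium, differed by 1.25 to 7.42 cycles. The minor arms and miR-186 read under 20, so these cases do not give the spread between assays for such wells.

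Over the 7 assays detected in both media, the difference, conditioned minus blank, ran from -4.21 to 14.6 cycles, with a median of 1.97. Over all 176 such assays the median was 0.05. The median absolute difference was 3.63 cycles for the 7 and 2.19 for all 176. Of the 7, 5 were later in conditioned media and 2, miR-191 and miR-186, were earlier, where 51.7% of all 176 were later.

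**Figure D3:**
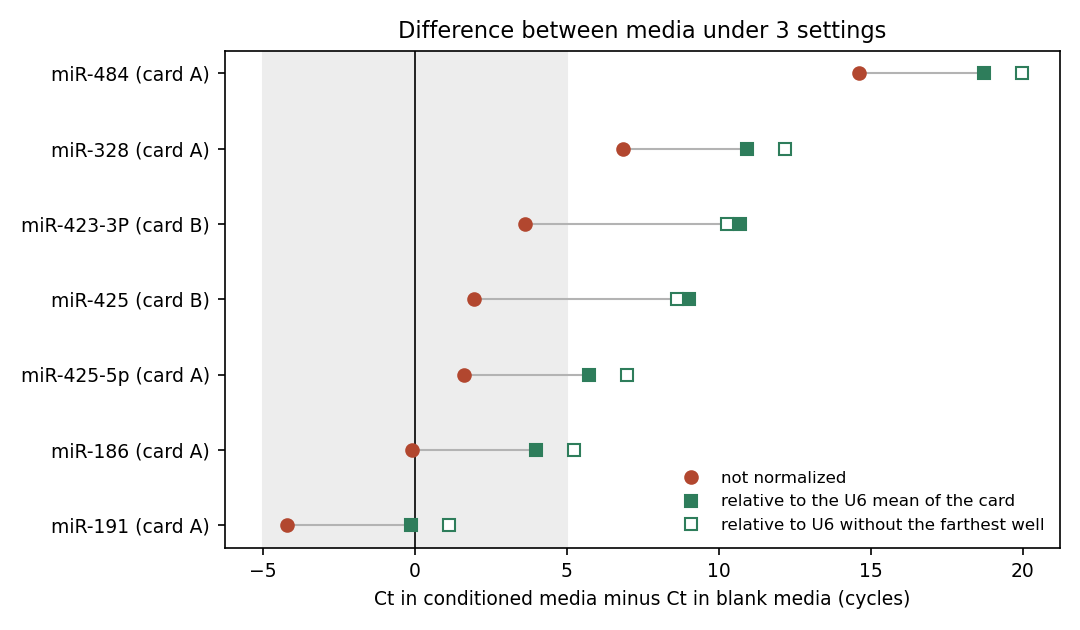
Ct in conditioned media minus Ct in blank media for the 7 reference miRNA assays detected in both, without normalization (circles), relative to the mean of the U6 wells of the same card (filled squares) and relative to U6 without the well farthest from the median in each medium (open squares), and the shaded band spans 5 cycles either way. Each value is 1 assay with no replicate, and relative to U6 all but miR-191 lie more than 3 cycles to the right of 0, while 89.2% of all 176 assays lie to the right of 0 by the U6 mean.

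Relative to the U6 mean of the same card, 6 of the 7 were later in conditioned media, as were 89.2% of all 176 assays, so that this count follows the background. The 6 were miR-186 by 3.98 cycles, miR-425-5p by 5.72, the miR-425 assay by 9.04, miR-423-3P by 10.7, miR-328 by 10.9 and miR-484 by 18.7. The seventh, miR-191, was at -0.13. Without the farthest U6 wells, the card A values became 5.24 for miR-186, 6.98 for miR-425-5p, 12.2 for miR-328 and 19.97 for miR-484. Thus the assay with the smallest difference in Ct, miR-186, and the assay with the smallest difference relative to U6, miR-191, were not the same one.

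The distance between 2 reference sequences in 1 medium does not depend on how much sample was loaded, if both read template with equal efficiency. That condition was not tested for these assays. The 5 assays of card A detected in both media form 10 pairs. The distance within a pair changed between media by 1.74 to 18.8 cycles, with a median of 7.36. The smallest change, of 1.74, was between miR-186 and miR-425-5p, where miR-186 minus miR-425-5p was -4.01 cycles in conditioned media and -2.27 in the blank. Next was the pair of miR-186 and miR-191, which changed by 4.11 cycles, and the remaining 8 pairs changed by more than 5. The largest, of 18.8, was between miR-191 and miR-484. On card B, miR-425 and miR-423-3P changed in distance by 1.66 cycles.

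How far the choice of reference moves the other sequences was then measured over the assays of the same card detected in both media. On card A, the median difference of the other 93 assays was 4.11 cycles with miR-191 as the reference, near the 3.97 cycles found over 94 assays with U6. With miR-186 it was -0.03, with miR-425-5p -1.77, with miR-328 -6.96 and with miR-484 -14.8. A positive value means later in conditioned media relative to the reference, and so less relative to it, not less template as such. Without any reference the median of card A was -0.115 cycles. Relative to U6 and miR-191, the level at the median of the card was therefore lower in conditioned media. It was nearly level relative to miR-186, and higher relative to the other 3. With miR-191, 1 assay was earlier by more than 5 cycles and 34 were later, and with U6 these counts were 2 and 33. Without the farthest U6 wells the median was 5.23 cycles and the counts were 0 and 49, so the nearness of U6 to miR-191 depended on those wells. With miR-186, they were 12 and 15, the same as without any reference. With miR-484, 85 were earlier and 0 later. On card B, the median of the other 81 assays was -1.76 with the miR-425 assay and -3.43 with miR-423-3P, compared with 7.33 over 82 assays with U6.

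**Figure D4:**
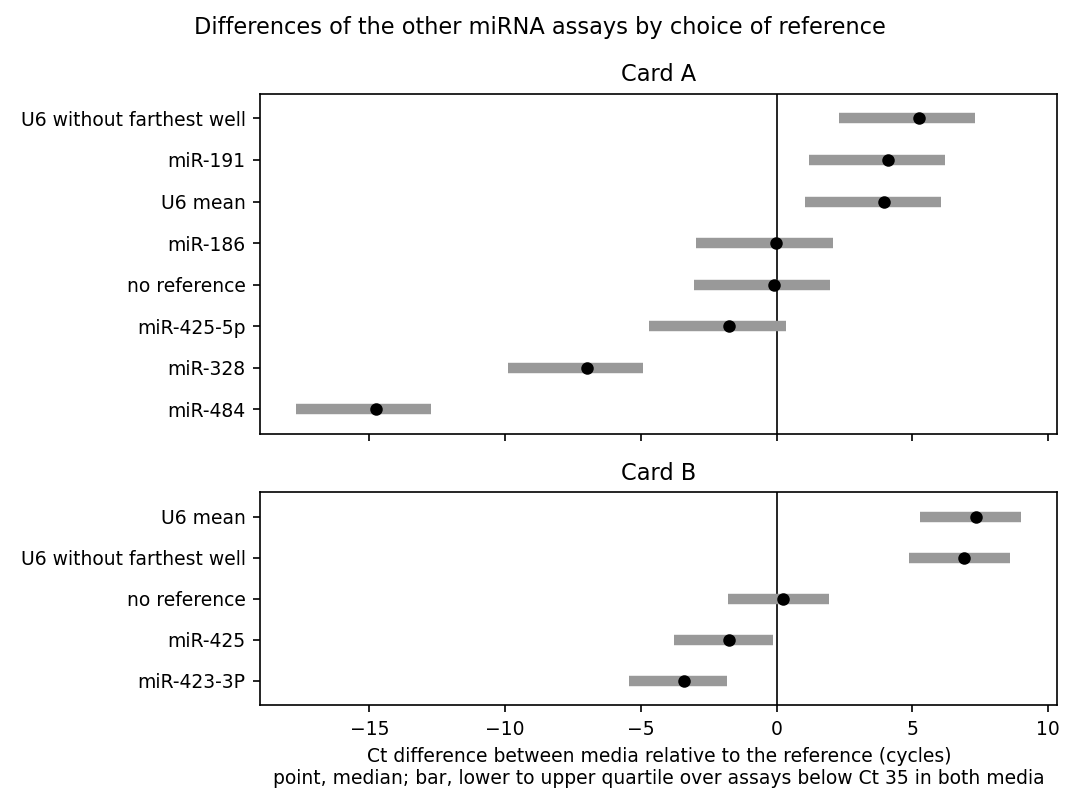
Difference in Ct between media (conditioned minus blank) of the other miRNA assays detected in both, expressed relative to each reference of the same card, as the median (point) and the lower to upper quartile (bar). On card A the medians run from -14.8 with miR-484 to 5.23 with U6 without its farthest wells, and miR-191 and the U6 mean lie at 4.11 and 3.97.

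For miR-142-3p, miR-20a and miR-30c, named here after their values were seen, the difference depended on the reference. miR-20a read 24.2 in conditioned media and 26.3 in the blank, a difference of -2.10 cycles. Relative to miR-191 it was 2.12 cycles later in conditioned media, and relative to U6 1.99 later, but relative to miR-186 it was earlier, at -1.99. miR-30c, with a difference of -1.09, likewise stood at 3.12 relative to miR-191, 2.99 relative to U6 and -0.99 relative to miR-186. miR-142-3p, with a difference of 0.48, was later by all 3 of these, at 4.69, 4.56 and 0.58, and earlier by miR-425-5p, at -1.16. Within conditioned media alone, where blank readings do not enter, the 6 embryonic assays lay on both sides of miR-191, with the limit that Ct values of different assays are compared. On card A, miR-292-3p and miR-295 were earlier, at -3.25 and -3.20 cycles relative to miR-191, and miR-294, miR-293 and miR-291a-3p were later by 1.23, 1.71 and 3.75. The miR-292-3p assay of card B, on another card than miR-191, was later by 0.15.

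Of 10 other sequences in use as references, miR-16, miR-24, miR-25, miR-26b, miR-30e, miR-92a, miR-93, miR-345-5p, miR-361 and let-7a, 9 had an assay under that name, all on card A. Of these 9, 6 were detected in conditioned media, 5 in blank media and 5 in both. The 5 differed by -2.47 cycles for miR-25, -2.22 for miR-24, -0.40 for miR-30e, 2.32 for miR-345-5p and 13.9 for miR-26b. miR-30e, at 27.1 with embryos and 27.5 without, thus moved by less than 1 cycle, as miR-186 did. miR-26b resembled miR-484 in its early blank reading, at 15.6 against 29.5 in conditioned media. miR-93 had a Ct of 38.2 in conditioned media, beyond the limit, and miR-361 and let-7a were undetermined in both media. Among the small RNA controls of the array, snoRNA135 and snoRNA202 had a Ct between 28.5 and 33.0 in conditioned media on both cards and were undetermined in blank media, as miR-103 and miR-320 were. The controls U87 and Y1 differed between cards. In conditioned media U87 read 32.7 on card A and was undetermined on card B, while Y1 was undetermined on card A and read 15.5 on card B, and both were undetermined in blank media.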

How the data were processed

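One sample of each medium was run on the 2 cards of the rodent TaqMan array, A and B. Lysate (3 μL per card) went into reverse transcription without RNA extraction, then 12 cycles of pre-amplification and 40 of qPCR. The authors exported the Ct with QuantStudio software v. 1.3 and deposited it per well, without normalization, with wells lacking a Ct as undetermined. The sources used here give neither threshold nor baseline, and the authors' deposited fold changes were not used. The fluorescence limit of the study was not applied, so detection rests on Ct alone. For each card and medium, wells of U6 share 1 product, combined from parallel pre-amplification reactions and used undiluted.

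The assays, lists and limits were chosen with earlier results of these data known. Named sequences were all members, their minor arms, 10 other reference candidates, control and marker assays and the 3 assays nearest to miR-191. Differences are conditioned minus blank. Alternatives were Ct limits of 32, 38 and 40, a lower limit of 20, a difference limit of 3, other U6 summaries, centring on the card median and each member as the reference. Counting was tested on simulated data for 350 assays, where 6 of 6 checks passed. Python 3.11.15, pandas 2.3.3, numpy 2.4.6 and matplotlib 3.10.9 were used.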

Additional observations from a re-analysis of the deposited data

Results flagged for a closer look

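The U6 wells of card A stood out in both media, each time through a single early well. In conditioned media the gap between the well at 19.9 and the nearest of the other 3 was 0.88 of the whole range of the 4 wells. In blank media the gap between the well at 20.2 and the nearest other was 0.87 of the range. Both passed the limit of Dixon's test for 4 values, which chance passes in about 1 in 20 sets. The differences relative to U6 of the 5 card A assays detected in both media are given with and without these wells, and other values relative to U6 with all wells.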

How the results depend on the processing

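With 1 well per assay and medium, no error is attached to a single difference, and the distance to U6 rests on 4 wells. When wells with a Ct under 20 were not counted, 4 of the 11 assays were detected in blank media in place of 7, and 4 in conditioned media only in place of 2, with miR-328 and miR-484 added. At a difference limit of 3 cycles, 1 assay, miR-191, was earlier in conditioned media. Ct limits of 32, 38 and 40 gave 8, 9 and 9 assays with embryos and 6, 7 and 7 without. Card A alone, a setting chosen after seeing the data, had 7 and 5. The sign of miR-186 turned from -0.10 to 0.014 when centred on the card median, to 3.98 relative to the U6 mean, to 4.995 relative to the U6 median and to 5.24 without the farthest wells. That of miR-191 turned from -4.21 to 0.88 relative to the U6 median and to 1.13 without the farthest wells. The other 5 assays stayed later in conditioned media under all 4 of these settings. Relative to U6, the other assays had a median of 3.97 (card A) and 7.33 (card B). It turned to -0.028 with miR-186, -6.96 with miR-328, -1.77 with miR-425-5p and -14.8 with miR-484 on card A, and to -1.76 with miR-425 and -3.43 with miR-423-3P on card B. These turns follow from the arithmetic, since each median is the median difference over the other assays of the card minus the difference of the reference. No paired analysis was possible because each medium had 1 sample.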
